A study of Macaca mulatta with 8 samples.

Results

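Transcripts of the inflammasome sensors and of the genes that carry their signal to pyroptosis were followed in cultured macaque microglia. Members were selected by gene symbol, and 10 symbols were named: the sensors NLRP3, NLRP1, NLRC4 and AIM2, the adaptor PYCARD, the kinase NEK7, the protease CASP1, the pore former GSDMD, and the peptidoglycan receptors NOD1 and NOD2. Of these, 9 matched a row among the 35432 genes of the count files. The symbol CASP1 matched none, and 11503 rows carry no symbol, so CASP1 was not analysed here. NLRC4 had too few reads to be tested, which left 8 tested members among 12131 genes tested in all.

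An inflammasome is a cytosolic complex in which a sensor, most often joined through the adaptor PYCARD, gathers and activates caspase-1. Caspase-1 cuts pro-IL-1β and pro-IL-18 into their active forms and cuts GSDMD, whose freed end forms membrane pores through which the cytokines leave and the cell may die by pyroptosis. In macrophages and microglia, signaling by Toll-like receptors first raises the transcripts of NLRP3 and IL1B, a step known as priming, while assembly needs a further trigger such as extracellular ATP or loss of potassium. These steps after transcription leave no direct trace in RNA levels.

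The cells were primary microglia from the subcortical white matter of 4 adult rhesus macaques (donors R07110 and R12016, male, and R02046 and R14143, female), kept for 8 days in medium with serum and M-CSF. On day 7, each culture received 10 µg/mL uLPS (an ultrapure lipopolysaccharide that acts through TLR4) for 16 h. In 1 culture of each donor the antagonist MRS2578 (5 µM, given 1 h earlier) was present to block P2RY6, a receptor for extracellular UDP. MRS2578 is described as selective for this receptor but not fully specific. It was dissolved in DMSO, and the study's methods name DMSO controls for assays with the antagonist, while the labels of the libraries with uLPS alone name no solvent. There were thus 4 libraries with uLPS and 4 with uLPS and MRS2578. The fits below compare libraries of the same donor, except where a fit without donor block is named. Ranges and means of a condition are over all donors together. Both groups shared uLPS. No library without uLPS was analysed here, so the size of the priming response itself could not be measured. Poly(A) RNA was sequenced, and the files give the number of reads within the exons of each gene.

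Total counts ran from 9231109 to 32790348 per library, and levels are given as CPM, the reads of a gene relative to all reads of its library, after scaling by the TMM method. A count of 0 allows up to 3 counts, which at these depths amount to 0.0914 to 0.320 CPM (counting error only). The labels of the libraries of R02046 are in conflict with the study's own table of CPM values, in which the conditions of that donor are the other way round. The labels were kept here. The fitted changes are therefore also given with these libraries exchanged and with R02046 left out. Of 14 microglia and macrophage markers, 13 were in the files, and their summed level was 4961 to 6337 CPM with uLPS and 4482 to 5557 CPM with MRS2578. TMEM119, a marker of microglia in the intact brain, reached at most 0.32 CPM, and CX3CR1 at most 2.21 CPM. Markers of lymphocytes stayed under 1 CPM in every library (8 of 8). Those of endothelial cells, mural cells and fibroblasts summed to 335 to 1191 CPM with uLPS and 373 to 663 CPM with MRS2578, with 3 of 12 under 1 CPM throughout. Those of oligodendrocytes summed to 239 to 407 CPM and 223 to 304 CPM, and those of astrocytes to 88.9 to 205 CPM and 112 to 191 CPM. In R07110, R12016, R02046 and R14143 the log2 ratio with MRS2578 was 0.15, 0.26, 0.31 and -1.09 for the endothelial, mural and fibroblast sum. For the astrocyte sum it was 0.030, -0.092, 0.33 and -0.77. The members of these lists did not move together in R14143. There the log2 differences were -1.52 for COL1A1, -1.44 for COL1A2 and -1.14 for DCN. For PECAM1, VWF and FLT1 they were -0.24, 0.10 and 0.64. For GJA1, GFAP, SLC1A2 and SLC1A3 they were -1.75, -0.85, -0.71 and -0.038, while AQP4, ALDH1L1 and SOX9 averaged under 1 CPM in both conditions. Whether this difference between the cultures of R14143 bears on the members was not tested. Neuron markers summed to 8.59 to 10.9 CPM and 6.88 to 32.8 CPM, and neutrophil markers to 2.30 to 5.66 CPM and 3.04 to 9.95 CPM. In every library 3 of 5 neuron markers and 6 of 7 neutrophil markers stayed under 1 CPM. The neuron sum was mostly MAP2 and TUBB3, and the neutrophil sum mostly CXCR2 (at most 9.73 CPM), so neither sum shows that these cells were present. Since these are bulk samples, fewer cells of a type and less RNA per cell cannot be told apart.

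The question was whether blocking P2RY6 moved these transcripts in cells that had received uLPS, and 0 of the 8 tested members were called. The test was edgeR's quasi-likelihood (QL) F-test, blocked by donor, with Benjamini-Hochberg adjustment over all genes and a call at an adjusted p under 0.05, and it called 0% of all genes tested. At an unadjusted p under 0.05 the members counted 0 of 8, against 5.14% of all genes. EdgeR's likelihood ratio test and DESeq2's Wald test also called 0 members, against 0.0412% and 0.00824% of all genes, and at an unadjusted p under 0.05 they counted 0 members as well, against 5.35% and 4.9%. For all 9 members found, the ranges of the 4 libraries with uLPS and the 4 with MRS2578 overlapped, and 1.08% of all genes tested had ranges that did not. Of the fitted changes 4 were above 0 and 4 below, with a median log2 fold change of 0.024 over the members and -0.0097 over all genes. With R02046 exchanged 2 were above 0 and 6 below (median -0.067), and without R02046 3 were above and 5 below (median -0.068). The study's own edgeR analysis of these donors did report genes that differed at a false discovery rate under 0.05. It does not name its model, and its table has the conditions of R02046 the other way round. With that exchange the test used here called 0.618% of all genes.

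Levels per exon length differed far more between the genes than between the conditions. Exon lengths came from the NCBI annotation, while reads were counted over Ensembl genes, so the values depend on how far the 2 gene models match. CPM divided by the kilobases of annotated exon was highest for PYCARD (805 bases), at 71.5 ± 31.7 (SD, n = 4) with uLPS, followed by GSDMD at 39.7 ± 4.52. NLRP3, NEK7 and AIM2 came next at 19.4 ± 2.52, 15.2 ± 2.59 and 11.6 ± 3.26 CPM per kb. The peptidoglycan receptors were lower, with NOD2 at 4.06 ± 0.826 and NOD1 at 2.33 ± 0.535 CPM per kb. NLRP1 was at 1.06 ± 0.387 and NLRC4 at 0.0635 ± 0.0293 CPM per kb. With MRS2578 the order was the same. Among neighbours in this order, PYCARD and GSDMD, NLRP3 and NEK7, and NEK7 and AIM2 overlapped over the donors with uLPS, and NLRP3 and NEK7, and NOD1 and NLRP1, overlapped with MRS2578. Thus the adaptor and the pore former were the most abundant transcripts of the set per length, and 2 sensors, NLRP1 and NLRC4, the least. In plain CPM, which also depends on length, NLRP3 and GSDMD stood above 83.8% and 83.7% of the genes tested, and NLRP1 above 22.7%.

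**Figure D1:**
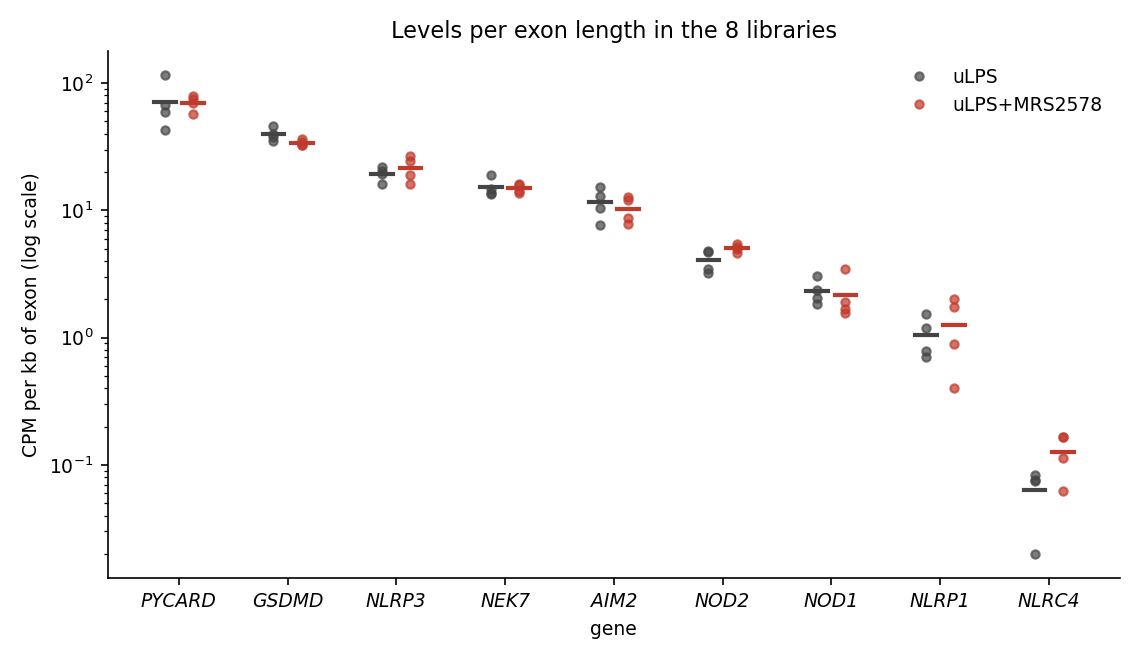
Transcript level per exon length of the 9 members in CPM per kb of annotated exon (log axis), with 1 point per library, 4 donors in each condition, and a bar at each mean. PYCARD and GSDMD sit at the top in both conditions (means of 71.5 and 39.7 with uLPS) and NLRC4 at the bottom (0.0635 with uLPS).

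NLRP3, the sensor that responds to potassium loss and many other forms of cell damage, lies on chromosome 1 (1562863 to 1596246, minus strand, 11 exons in its longest transcript, Mmul_10). With uLPS it was at 104, 112, 97.8 and 82.0 CPM in R07110, R12016, R02046 and R14143, and with MRS2578 at 96.7, 82.5, 136 and 125 CPM in the same order of donors. It was thus lower with MRS2578 in R07110 and R12016 and higher in R02046 and R14143 by the labels, with within-donor differences of -0.11, -0.45, 0.48 and 0.61 on the log2 scale. The fitted log2 fold change was 0.13 (SE 0.185, 95% interval -0.30 to 0.57), with an edgeR QL adjusted p of 0.934. The interval spans folds from 0.810 to 1.49. With the R02046 libraries exchanged the direction turned to -0.11 (adjusted p 0.815 in the same test), and without R02046 it was 0.017. The span of a long non-coding gene on the opposite strand overlaps that of NLRP3 over 9642 bases, introns included. NLRP3 has 5101 bases of exon, and overlap between exons was not measured. The strand setting of the counting is not given in the sources used here, so any reads from shared exon bases cannot be assigned to one gene.

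The genes whose log2 CPM was most like that of NLRP3 over the 8 libraries, out of 10926 genes with a symbol, were ERCC6 (Pearson r = 0.974), FASTKD5 (0.950) and MGAT5 (0.944). These are the highest of many correlations over few libraries from shared donors and are given as a description.

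NLRP1, a sensor freed by the breakdown of its inhibitory part, lies on chromosome 16 (5314800 to 5370299, minus strand, 17 exons). Its levels were low and differed between donors, at 3.93, 8.62, 6.72 and 4.42 CPM with uLPS and 2.26, 9.80, 11.3 and 4.98 CPM with MRS2578. The SD of its donor means was 0.76 on the log2 scale, the largest of the 8 tested members. The fitted log2 fold change was 0.087 (SE 0.258, 95% interval -0.52 to 0.70, edgeR QL adjusted p 0.972). It was -0.27 with R02046 exchanged and -0.12 without that donor.

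NLRC4, which assembles on NAIP proteins that have bound bacterial flagellin or secretion needle proteins, lies on chromosome 13 (76637872 to 76673144, plus strand, 8 exons). It was close to the limit of detection in all libraries. Its reads numbered 13, 7, 1 and 8 with uLPS and 15, 14, 12 and 6 with MRS2578, which is at most 0.89 CPM. R14143 was lower with MRS2578 and the other donors were higher by the labels. No call was made for it, because it did not pass the filter on low counts. Fitted without that filter, its log2 fold change was 0.77 with a 95% interval from -0.42 to 1.97 (edgeR QL adjusted p 0.879). That value leaned on R02046, whose difference was 2.20 from 1 read with uLPS. In fits without the filter that were added after seeing the data, it was 0.073 (95% interval -1.20 to 1.35) with R02046 exchanged and 0.50 (-0.71 to 1.71) without R02046. Without R14143 NLRC4 passed the filter, at 1.11 by the labels and 0.17 with the exchange, and was not called in either. The span of SLC30A6 overlaps that of NLRC4 on the opposite strand over 1712 bases, introns included.

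AIM2, a sensor of cytosolic double-stranded DNA, lies on chromosome 1 (91777410 to 91902069, plus strand, 8 exons). It was at 17.3, 34.3, 23.4 and 29.1 CPM with uLPS and 17.7, 28.4, 19.5 and 27.2 CPM with MRS2578, so the donors kept their order in both conditions. The within-donor differences of 0.031, -0.27, -0.26 and -0.097 had an SD of 0.15, against a median SD of 0.30 over all genes tested. The log2 fold change of -0.15 (SE 0.113, 95% interval -0.42 to 0.12, edgeR QL adjusted p 0.897) had the smallest SE of the set after that of GSDMD. It was -0.027 with R02046 exchanged and -0.11 without R02046. The span of CADM3 overlaps that of AIM2 on the opposite strand over 16615 bases, introns included, while AIM2 has 2248 bases of exon. A pseudogene on the same strand overlaps the span of AIM2 over 2653 bases. Reads from any shared exon bases have the same limit.

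**Figure D2:**
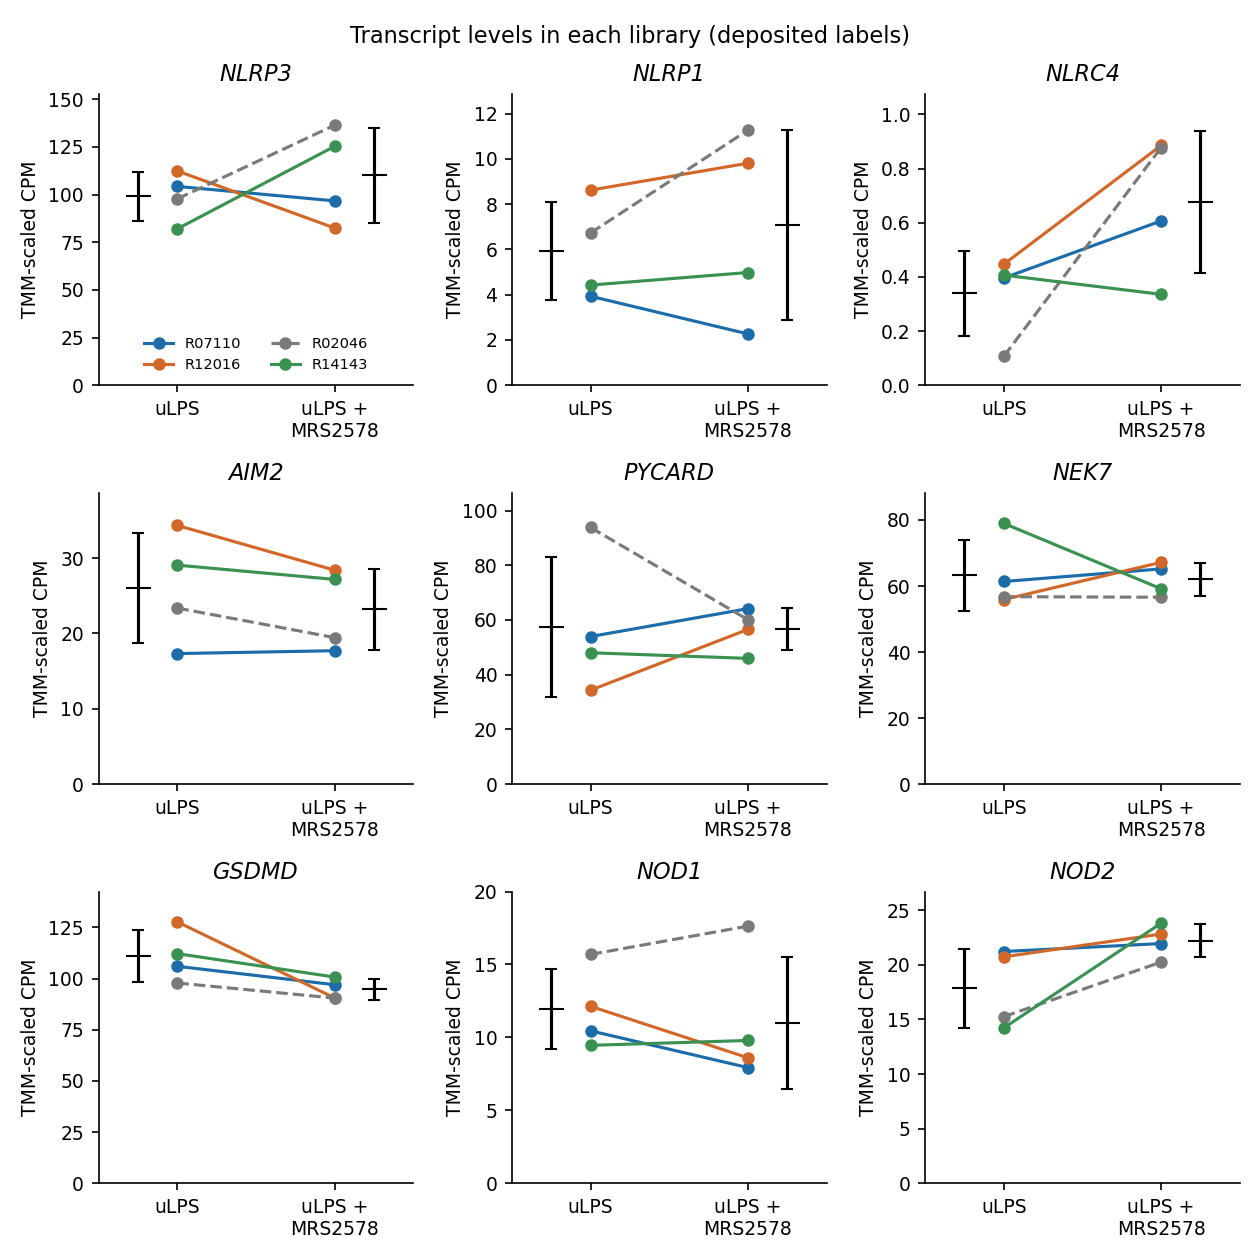
TMM-scaled CPM of the 9 members in the 8 libraries, in 1 panel per gene with its own axis from 0; lines join the libraries of a donor (R02046 dashed) and black bars give the mean ± SD of each condition by the labels. Along all 4 lines NOD2 is higher and GSDMD lower with MRS2578, NLRP3 is higher in 2 donors and lower in 2, and the PYCARD line of R02046 goes from 93.8 to 60.1 CPM while that of R12016 goes from 34.3 to 56.5 CPM.

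PYCARD, the adaptor also known as ASC whose pyrin and CARD domains link sensor to caspase-1, lies on chromosome 20 (28633640 to 28634953, minus strand, 3 exons). It was at 53.9, 34.3, 93.8 and 48.0 CPM with uLPS and 64.1, 56.5, 60.1 and 46.0 CPM with MRS2578. The libraries with uLPS averaged 57.5 ± 25.5 CPM (SD, n = 4) and those with MRS2578 56.7 ± 7.80 CPM. With R02046 exchanged these values became 49.1 ± 11.0 and 65.1 ± 20.5 CPM, so the group with the wider spread changed. The within-donor differences were 0.25, 0.72, -0.64 and -0.063. The result for PYCARD rested on how R02046 was treated. By the labels the log2 fold change was 0.066 (SE 0.208, edgeR QL adjusted p 0.973). With the libraries of R02046 exchanged it was 0.38 (SE 0.139, 95% interval 0.063 to 0.71, adjusted p 0.228), and without R02046 it was 0.30 (adjusted p 0.497). Under the exchange PYCARD was the only member with an unadjusted p under 0.05, 1 of 8 against 16.4% of all genes tested, while 0 members and 0.618% of all genes were called after adjustment. Exchanged and without R14143 as well, PYCARD was called at 0.53 (adjusted p 0.0346), in a setting in which 7.57% of all genes were called. In that setting 3 of 9 members had an unadjusted p under 0.05, against 25.7% of all genes, and they were PYCARD, NLRP3 (-0.35, adjusted p 0.0765) and NOD1 (-0.36, adjusted p 0.191).

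NEK7, the kinase that binds NLRP3 and is required for its assembly after potassium loss, lies on chromosome 1 (55565606 to 55711519, plus strand, 10 exons). It was at 61.4, 55.9, 56.8 and 79.0 CPM with uLPS and 65.2, 67.2, 56.6 and 59.2 CPM with MRS2578. Apart from R14143 with uLPS, the libraries lay within a narrow band. The log2 fold change was -0.017 (SE 0.129, 95% interval -0.32 to 0.29, edgeR QL adjusted p 0.991). It was -0.016 with R02046 exchanged and -0.023 without that donor. A fold above 1.22 with MRS2578 lay outside the interval by the labels.

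GSDMD, gasdermin D, the protein that forms the pyroptotic pore, lies on chromosome 8 (143820127 to 143828700, plus strand, 10 exons). Its level was 106, 128, 97.9 and 112 CPM with uLPS and 97.0, 90.6, 90.5 and 101 CPM with MRS2578. By the labels it was lower with MRS2578 in 4 of 4 donors, by 0.13, 0.50, 0.11 and 0.16 on the log2 scale, although the groups overlapped, since R02046 with uLPS lay within the range of the libraries with MRS2578. The fitted log2 fold change was -0.22 (SE 0.103, 95% interval -0.47 to 0.020), a fold of 0.857 (0.724 to 1.01), and was not called (edgeR QL adjusted p 0.878). It was -0.17 with R02046 exchanged and -0.26 without R02046, also not called. Without R12016, the donor with the widest difference, it was -0.13 by the labels and -0.053 with R02046 exchanged. GSDMD and NOD2 were the only tested members with 1 direction in all 4 donors by the labels, 2 of 8, while 12.9% of all genes tested had 1 direction. Over R07110, R12016 and R14143 alone the count was again 2 of 8, against 36.8% of all genes, and with R02046 exchanged it was 0 of 8, against 23.8%. A sign-flip test over 4 donors cannot give a two-sided p below 0.125.

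NOD1 and NOD2 are not inflammasome sensors in the strict sense. They bind fragments of bacterial peptidoglycan in the cytosol and signal through the kinase RIPK2 to NF-κB. NOD1 lies on chromosome 3 (84626482 to 84676341, plus strand, 15 exons). It was at 10.5, 12.1, 15.7 and 9.45 CPM with uLPS and 7.93, 8.60, 17.6 and 9.79 CPM with MRS2578. It was lower with MRS2578 in R07110 and R12016 (by 0.39 and 0.49 on the log2 scale) and slightly higher in R02046 and R14143 (0.17 and 0.049). The log2 fold change was -0.17 (SE 0.166, 95% interval -0.56 to 0.22, edgeR QL adjusted p 0.906), -0.25 with R02046 exchanged and -0.28 without R02046. Without R12016 it was -0.063 by the labels.

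NOD2 lies on chromosome 20 (37792336 to 37831438, plus strand, 12 exons). With uLPS it was at 21.2, 20.7, 15.3 and 14.2 CPM, and with MRS2578 at 22.0, 22.8, 20.3 and 23.8 CPM. R02046 and R14143 were lower than the other donors with uLPS, and with MRS2578 all 4 donors lay between 20.3 and 23.8 CPM. The within-donor differences of 0.049, 0.14, 0.41 and 0.74 were all above 0. The log2 fold change of 0.33 (SE 0.150, 95% interval -0.025 to 0.69), a fold of 1.26 (0.983 to 1.61), was the largest among the tested members by the labels and was not called (edgeR QL adjusted p 0.878). Exchanging the libraries of R02046 lowered it to 0.14, less than the size of the change in PYCARD, NLRP1, NOD1 and GSDMD in that setting, and leaving R02046 out gave 0.30. The genes with the most similar log2 CPM to NOD2 over the 8 libraries were SNX27 (Pearson r = 0.953), GOLGA3 (0.934) and ZNF597 (0.926), given as a description.

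**Figure D3:**
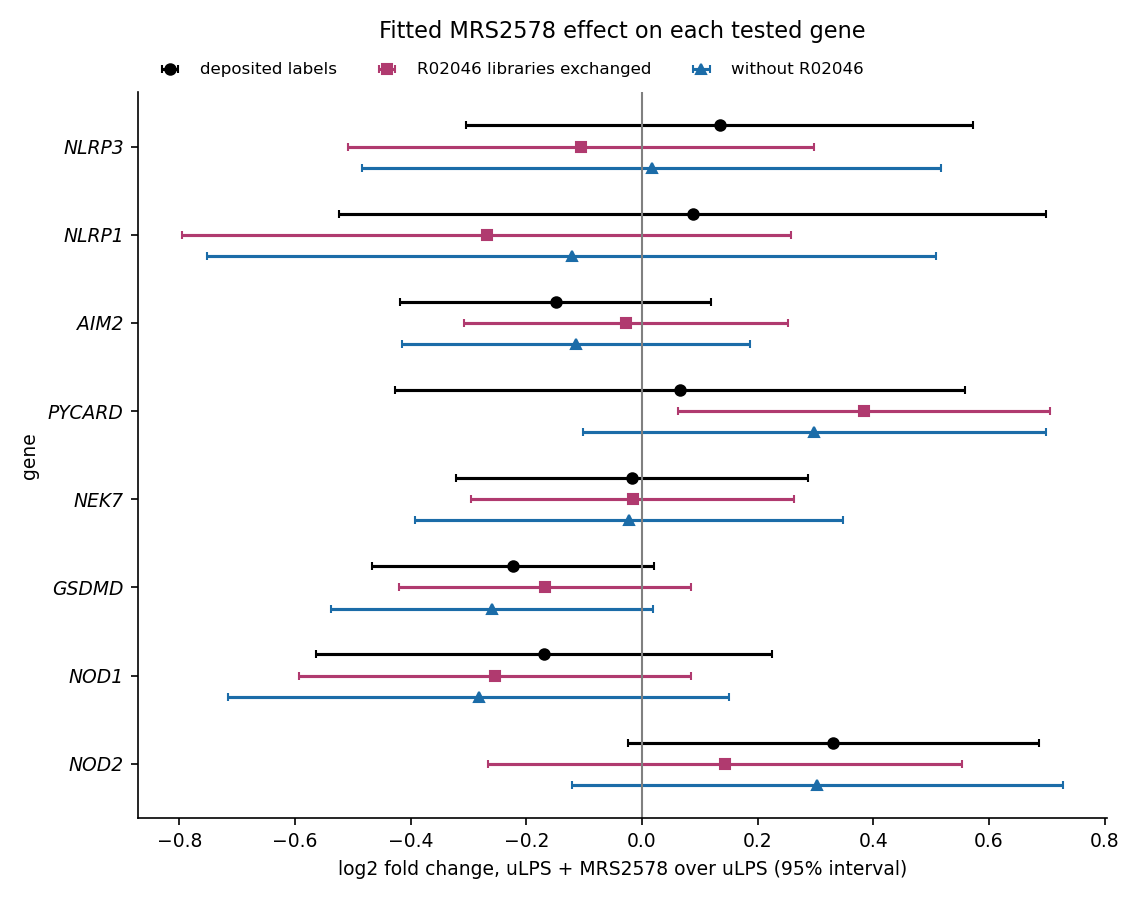
Fitted log2 fold change of uLPS with MRS2578 over uLPS for the 8 tested members, with 95% intervals from edgeR's quasi-likelihood fit, by the deposited labels, with the R02046 libraries exchanged and without R02046. All intervals include 0 except that of PYCARD after the exchange (0.063 to 0.71), which was not called after adjustment.

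The 250 bases upstream of the annotated start of each member were searched on both strands for short forms of motifs of factors that act downstream of Toll-like and purinergic receptors. The motifs were TGGAAA (NFAT), a κB form (GGG, NN, TTN and CC in a row), an interferon-stimulated response element (GAAA, NN and GAAA in a row) and TGANTCA (AP-1), and they were present in 17.1%, 4.43%, 3.03% and 5.15% of the upstream windows of 20787 protein-coding genes. Among the 9 members the search found 1 match, an AP-1 motif 49 bases before the start of NLRC4. The window of NLRC4 (chr13:76637622-76637871, plus strand, Mmul_10, match in capitals), which holds the match, and that of NOD2 (chr20:37792086-37792335, plus strand), the member with the largest fitted change by the labels, are shown from the NCBI RefSeq annotation.
NLRC4: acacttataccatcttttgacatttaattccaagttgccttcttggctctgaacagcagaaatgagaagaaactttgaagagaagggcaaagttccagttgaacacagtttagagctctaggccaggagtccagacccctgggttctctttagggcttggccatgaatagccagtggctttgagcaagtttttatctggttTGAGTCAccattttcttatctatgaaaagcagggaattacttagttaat
NOD2: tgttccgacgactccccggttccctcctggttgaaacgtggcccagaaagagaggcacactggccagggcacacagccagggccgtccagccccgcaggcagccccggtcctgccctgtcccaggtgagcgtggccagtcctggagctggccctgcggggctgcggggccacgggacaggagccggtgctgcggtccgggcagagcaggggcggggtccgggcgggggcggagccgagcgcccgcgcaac
The NOD2 window has 74.4% G and C, against a median of 57.2% over all windows. The annotated start need not be the start used in these cells, and an absent match says only that these letters are not in this window.

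Genes that act around the members were examined in lists written from knowledge of the pathway. Of 103 named, 94 were in the files and 73 were tested. By the labels 0 of the 73 were called, as over all genes, with 3 at an unadjusted p under 0.05 (4.11%, against 5.14% of all genes). The median log2 fold change was -0.062, with 25 genes above 0 and 48 below. With R02046 exchanged 0 were called and 31 of 73 had an unadjusted p under 0.05 (42.5%, against 16.4% of all genes), at a median of -0.14. Without R02046 0 of 74 were called, with 25 (33.8%, against 13.6%) and a median of -0.12. Values below are log2 fold changes by the labels, then with R02046 exchanged and then without R02046, with adjusted p-values from the same QL test.

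Among other sensors of the NLR family, NLRP4, NLRP5, NLRP6, NLRP8, NLRP9, NLRP10, NLRP11, NLRP13 and NLRP14 had 0 counts in every library. NAIP, which binds the ligands of NLRC4, ranged from 89.8 to 139 CPM with uLPS and from 79.6 to 122 CPM with MRS2578, with log2 fold changes of -0.21 (SE 0.188), -0.36 and -0.38. NLRC5, a regulator of MHC class I genes, was at -0.39, -0.56 and -0.63, and NLRP2 at 0.16, 0.13 and 0.19. Of 5 tested genes of this list, 2 were above 0 by the labels. In the list of pyrin and the DNA and RNA sensors, 3 of 6 were above 0. MEFV, which encodes pyrin, was at 1.01 (SE 0.418), 0.39 and 0.78, with only 2 to 77 reads in a library and a difference of 2.42 in R02046 by the labels. IFI16, a DNA sensor, was at -0.31, -0.36 and -0.45, and DHX33, an RNA helicase, at 0.39, 0.32 and 0.47. The peptidases DPP8 and DPP9, which hold NLRP1 inactive, were at -0.089, -0.14 and -0.15 and at -0.16, -0.33 and -0.33, and the symbol CARD8 matched no row.

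The caspase list had 2 of 7 tested genes above 0. CASP4, which senses cytosolic lipopolysaccharide and also cuts GSDMD, averaged 147 ± 21.5 CPM with uLPS and 127 ± 60.9 CPM with MRS2578 (SD, n = 4). Its within-donor differences were -0.41, -0.74, 0.35 and -0.46, so that R02046 alone was higher by the labels. The log2 fold change was -0.32 (SE 0.175), and -0.49 with R02046 exchanged, where its adjusted p was 0.0629. Without R02046 it was -0.54. CASP4 and CASP5 are close copies, and reads that fit both were not counted. All 3 tested genes of the pore and rupture list were below 0: GSDME, another pore former, at -0.42, -0.65 and -0.72, GSDMA at -0.31, -0.50 and -0.54, and NINJ1, which drives the final rupture of the membrane, at -0.19, -0.25 and -0.30. None of these was called in these settings.

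Among the cytokine substrates, IL1B averaged 11966 ± 4782 CPM with uLPS and 9351 ± 5066 CPM with MRS2578 (SD, n = 4). Its differences were -0.49, -1.62, 0.52 and -0.20 on the log2 scale and its log2 fold change was -0.44, against -0.70 with R02046 exchanged and -0.76 without R02046. IL1A, which is released through pores and ruptured membranes, was at -0.93, -1.43 and -1.60. IL18, cut by caspase-1 like IL1B, averaged 9.71 ± 2.95 CPM with uLPS and 11.1 ± 6.36 CPM with MRS2578, and was at 0.11, 0.35 and 0.30 on the log2 scale. None of the 3 was called in these settings. The study reported lower IL-1α transcripts with MRS2578, by sequencing and by PCR, and an IL-1β decrease by sequencing that was not significant.

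Of 24 tested genes that act on NLRP3 activation, 10 were above 0, at a median of -0.023. HSP90AB1, a chaperone that keeps NLRP3 in a state able to respond, was at 0.55 (SE 0.251), 0.65 and 0.80, with within-donor differences by the labels of 0.94, 1.18, -0.20 and 0.27. The summed level of 6 other heat shock genes had the same sign of difference as HSP90AB1 in each donor, with log2 ratios of 1.55, 2.10, -0.42 and 0.55. It ran from 3523 to 6437 CPM with uLPS and 4821 to 16550 CPM with MRS2578. By the labels the sum was lower with MRS2578 only in R02046, the donor whose labels are in conflict, while the study reported that MRS2578 raised heat shock genes. Which assignment of R02046 is right was not tested. The part of these 6 genes in the HSP90AB1 result was not tested either. LRRC8A, a subunit of a volume-regulated chloride channel, was at 0.37 (SE 0.160), 0.31 and 0.43, and KCNK13, a potassium channel, at -0.23, -0.14 and -0.25.

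In the list of NOD1 and NOD2 signalling, 7 of 23 tested genes were above 0, at a median of -0.15. RIPK2, the kinase that both receptors share, averaged 446 ± 253 CPM with uLPS and 271 ± 51.8 CPM with MRS2578 (SD, n = 4), lower in R07110, R12016 and R14143 by 0.64, 1.21 and 0.63 on the log2 scale and higher by 0.20 in R02046. The fitted log2 fold change of RIPK2 was -0.57 (SE 0.213, QL adjusted p 0.878), and -0.67 with R02046 exchanged (adjusted p 0.0944) and -0.83 without R02046. BIRC2, a ubiquitin ligase that acts with RIPK2, was at -0.35 (SE 0.154), -0.45 and -0.53. SLC15A2, a transporter of peptides that include peptidoglycan fragments, was at 0.40, 0.18 and 0.37. RIPK2 was thus lower with MRS2578 in 3 donors in which NOD2, its upstream receptor, was higher by 0.049 to 0.74, and neither was called.

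**Figure D4:**
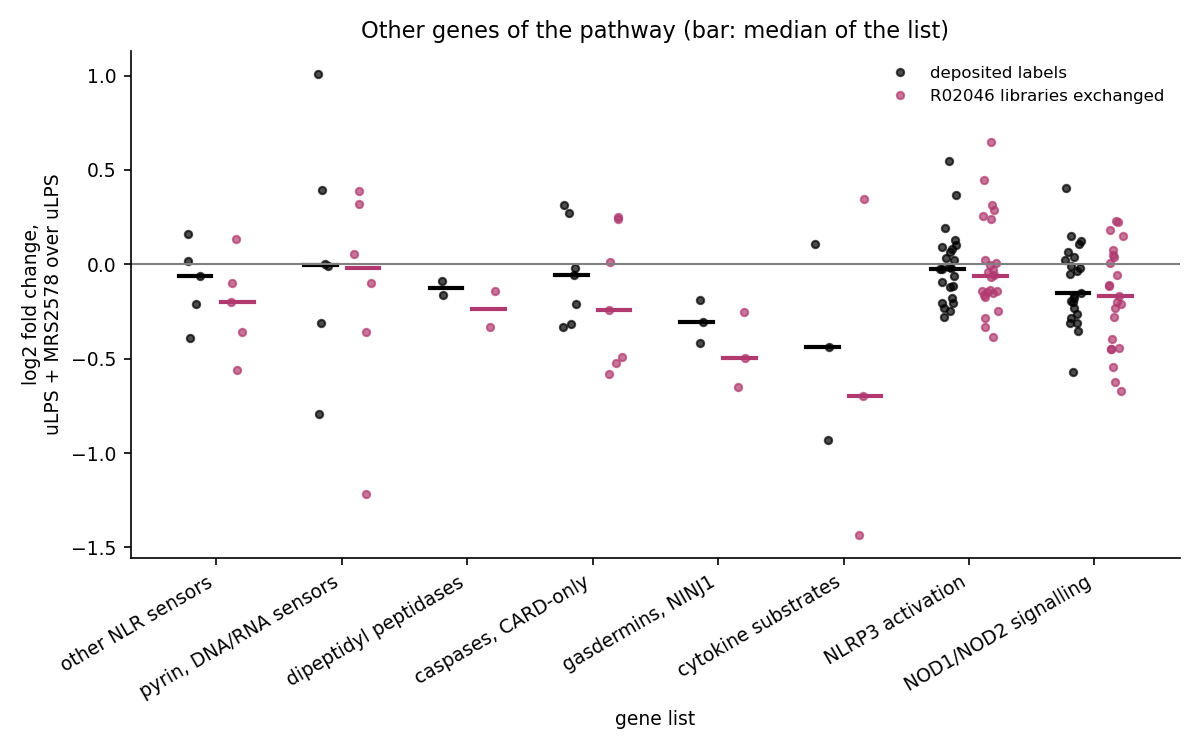
Log2 fold change of uLPS with MRS2578 over uLPS for the 73 tested genes of the pathway lists, 1 point per gene and a bar at the median of each list, by the deposited labels and with the R02046 libraries exchanged. The median of the NOD1 and NOD2 signalling list is -0.15 by the labels and -0.17 after the exchange, and 0 genes were called in either setting.

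After the exchange and without R14143, 14 of the 73 pathway genes were called by the QL test, 13 lower and 1 higher with MRS2578, in a setting in which 7.57% of all genes were called. They include NLRC5, NAIP, DPP9, CASP4, IL1A and RIPK2, lower, and HSP90AB1, higher. With R14143 in the same fit 0 were called, so these calls rest on both the assignment of R02046 and the absence of R14143.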

How the data were processed

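According to the methods, the authors used fastp for trimming, STAR for alignment to Mmul_10 and HTSeq, which counted unique reads within exons of Ensembl genes. The submitters' processing notes instead list Trimmomatic 0.30, TopHat2 2.0.14, SAMtools 1.3 and HTSeq 0.6.1p1. The deposited values are whole-number counts, not normalized, in 8 libraries of 9231109 to 32790348 counts. The annotation release is not given in the sources used here. Uniquely mapped reads leave close copies undercounted.

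Here, counts were analysed in R 4.3.3 with edgeR 4.0.16 (filterByExpr on the condition with a minimum count of 10, TMM scaling, quasi-likelihood F-test, donor as a block, Benjamini-Hochberg adjustment over 12131 genes), limma 3.58.1 and DESeq2 1.42.0. SE was derived from the fold change and the F statistic. Log2 CPM values carry a prior count of 2. The test was checked on simulated counts that held no differences between donors and larger changes than those fitted for the tested members. That check does not show how the blocked test performs on changes of this size. The block was used because both libraries of a donor come from 1 animal, and their deviations from the condition means correlated at 0.602, 0.552, 0.458 and 0.562 in R07110, R12016, R02046 and R14143. No sequencing batch is given in the labels. With 1 library per donor and condition, p-values of the blocked fits rest on how much the within-donor differences vary between donors. Differences in level between donors are taken up by the block. The 8 count files all differed by more than sampling noise.

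The alternatives were other scaling, tests and filters, no donor block, each donor left out, and the R02046 libraries exchanged. The text names all members, of each pathway list the 3 genes with the smallest unadjusted p and those that bind or are cut by a member, and the 3 genes most like NLRP3 and NOD2. Some genes that this rule would name are not reported here. Members and lists were chosen with earlier results of these data known. Exon lengths, positions and upstream windows come from the NCBI annotation of Mmul_10, matched by symbol for 9 of 9 members.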

Additional observations from a re-analysis of the deposited data

Results flagged for a closer look

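Of 27 groups of 4 values checked for a value far from the other 3, 2 stood out. Chance alone gives about 1 in 20. NLRC4 in R02046 with uLPS had a log2 CPM of -2.23, from 1 read, while the other donors with uLPS lay between -0.99 and -0.85. This library is one of the pair whose conditions are in conflict. The within-donor difference of GSDMD in R12016 was -0.50, while the other donors lay between -0.16 and -0.11.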

How the results depend on the processing

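Among the members, exchanging the libraries of R02046 turned NLRP3 to -0.11 and NLRP1 to -0.27 (log2 fold change), and the fit with no replicate block turned PYCARD to -0.015. The unpaired fit called 0 genes and turned no other named gene. Leaving out 1 donor, with or without the exchange, gave from -0.35 to 0.33 for NLRP3, -0.45 to 0.36 for NLRP1, -0.21 to 0.062 for AIM2, -0.14 to 0.53 for PYCARD, -0.11 to 0.12 for NEK7, -0.058 to 0.43 for NOD2, -0.26 to -0.053 for GSDMD and -0.36 to -0.063 for NOD1. For the pathway genes that changed direction it gave -0.34 to 1.64 for MEFV, -0.30 to 0.023 for DPP8, -0.44 to 0.019 for DPP9 and -0.10 to 0.45 for IL18. The same fits called 0 to 1 members, 0 to 14 pathway genes and 0 to 918 of all genes, the highest each time with R02046 exchanged and R14143 left out. Over all genes, DESeq2's Wald test called 1, the likelihood ratio test 5 and the exchange 75. Measuring length by the longest transcript moved 2 genes in the order of levels, NEK7 and AIM2, which traded places. The cause of these changes was not tested. The unadjusted counts and the intervals rest on 4 donors, and by the labels alone the direction of NLRP3, NLRP1, PYCARD and NEK7 depends on which donor is included.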
